A study of Gallus gallus with 6 samples.

Results

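The small heat shock proteins HSPB9, HSPB8, HSPB1 and CRYAB and the co-chaperone BAG3 were followed in SUT breeder hens, 28 weeks old, by RNA sequencing of the jejunal mucosa (the inner lining of the mid small intestine). The genes were taken by symbol from the deposited expression table, and all 5 listed symbols were found among its 16317 genes. Hens of the heat group were held at 36 °C for 6 h, and hens of the control group were kept at 23 °C. Each group had 25 hens, of which 12 were sampled, and RNA of 4 hens was mixed for each of 3 heat pools and 3 control pools. A pool is therefore the unit of replication, and a value for a pool is an average that cannot be assigned to single hens.

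Small heat shock proteins share an alpha-crystallin domain and bind unfolding proteins without using ATP, which keeps them soluble until the HSP70 machinery can refold them. BAG3 is a nucleotide exchange factor of HSP70 that also binds small heat shock proteins, HSPB8 above all, and directs damaged proteins to autophagy together with HSP70 and the ubiquitin ligase STUB1. HSPB1 binds actin and other parts of the cytoskeleton, CRYAB is abundant in lens and muscle, and HSPB9 is known in mammals mainly from testis. In birds and mammals the promoters of several of these genes are targets of heat shock factors.

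The libraries held 11513427 to 12947832 counts in heat pools and 13542604 to 13805395 counts in control pools. The tissue label was checked on marker genes: all 11 enterocyte markers were detected, with a summed level of 10430 to 15230 CPM (counts per 1000000 counts, with library sizes scaled by the trimmed mean of M values, TMM) in heat pools and 10840 to 13780 CPM in control pools. Smooth muscle markers, which matter here because CRYAB, HSPB1, HSPB8 and BAG3 are also muscle genes, summed to 1072, 2072 and 2121 CPM in heat pools 1, 2 and 3 and to 1359, 1112 and 1818 CPM in control pools 1, 2 and 3, with all 12 genes detected. Erythroid markers, with 4 of 8 genes in the table, summed to 12.6 to 17.1 CPM in heat pools and 21.4 to 23.4 CPM in control pools, without overlap. Of these genes, HBBA was lower in every heat pool and HBA1 overlapped (6.77 to 10.5 CPM in heat pools, 9.11 to 10.9 CPM in control pools). HBE1 and SLC4A1 had at most 2 counts in a pool. The part of erythroid cells in the results below was not tested. In a mixed tissue, fewer cells of a type and less RNA per cell cannot be told apart.

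All 4 genes with enough counts to be tested were higher on average in heat pools, and heat pool 2 stood far above the other heat pools in each. HSPB9 was 616-fold above the control mean in heat pool 2, BAG3 22.4-fold, HSPB8 10.6-fold and HSPB1 4.0-fold. In heat pools 1 and 3 the same ratios were 7.14-fold and 10.2-fold for HSPB9, 1.49-fold and 2.48-fold for BAG3, 1.82-fold and 1.91-fold for HSPB8, and 1.12-fold and 1.83-fold for HSPB1. CRYAB stayed below 1 FPKM (fragments per kilobase of transcript and 1000000 mapped fragments, the authors' values) in every pool.

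**Figure D1:**
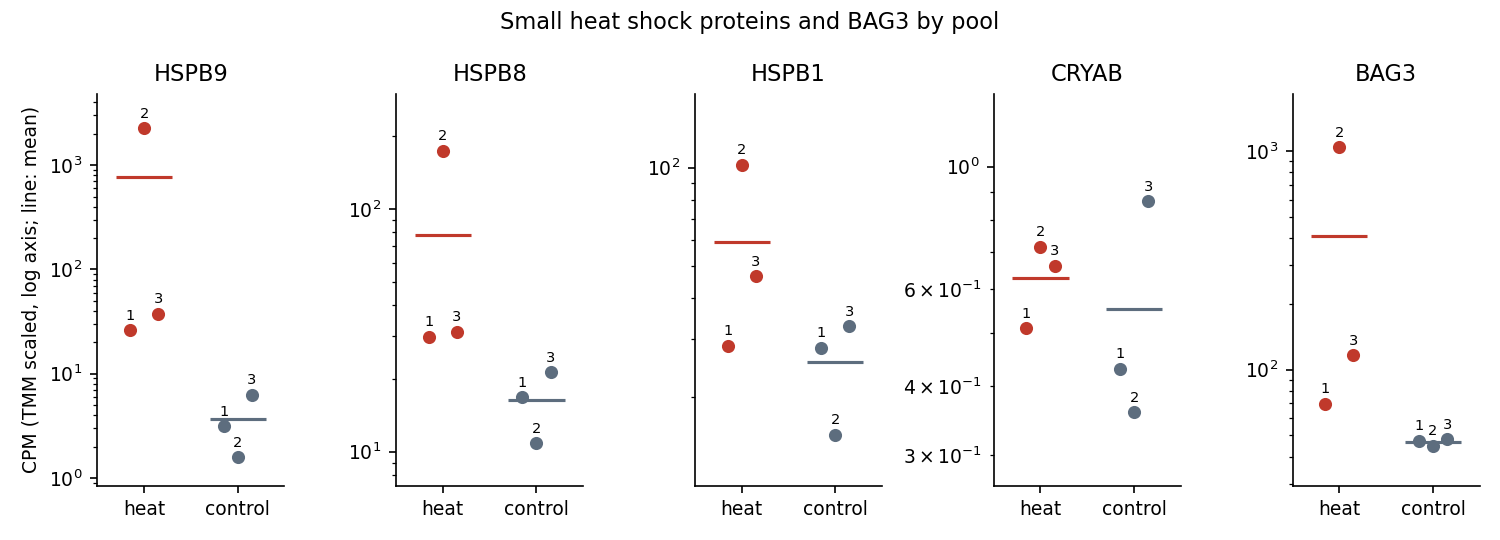
CPM on a log axis for each gene in 3 heat pools and 3 control pools (points numbered by pool, lines at the arithmetic mean, each panel with its own axis range). Heat pool 2 is the highest pool for HSPB9 (2259 CPM), HSPB8 (173 CPM), HSPB1 (102 CPM) and BAG3 (1045 CPM), and CRYAB overlaps between the groups.

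The quasi-likelihood test of edgeR, adjusted over all 13060 tested genes, called none of these 4 at the 0.05 threshold, and it called 0.023% of all tested genes (3 genes). All 4 had an unadjusted p under 0.05 with heat higher, as did 8.87% of tested genes. All 4 also had a log2 fold change of at least 1, which 1.15% of tested genes reached. In 3 of the 4 genes every heat pool lay above every control pool, against 11.6% of tested genes, and in none did every heat pool lie below (12.9% of tested genes). DESeq2 gave an adjusted p for 3 of the 4 and called 0 of them, where it called 5.25% of the genes it adjusted, and it gave no p for HSPB9. In all 4 genes heat pool 2 was at least 2-fold above both other heat pools, a gap that 1.2% of tested genes showed. That rule names the pool already seen to be highest in these genes. The genes were also chosen with earlier results of these data known. The counts set beside shares of all tested genes are thus a description and no independent support.

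HSPB9 (gene 428310), which the reference gene table also lists under the name HSP25, was the least abundant of the 4 tested genes at 23 °C. It was counted 309, 28389 and 454 times in heat pools 1, 2 and 3 and 44, 22 and 87 times in control pools 1, 2 and 3. Per length, it was at 39.5, 3268 and 51.1 FPKM in heat pools and at 4.66, 2.40 and 9.38 FPKM in control pools. The lowest heat pool was thus above the highest control pool. The exact Poisson 95% interval, which covers counting error only, was 23.4 to 29.3 CPM in heat pool 1 and 5.03 to 7.74 CPM in control pool 3.

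The fitted log2 fold change of HSPB9 was 7.72 (SE 1.92, edgeR adjusted p = 0.124), the highest of all 13060 tested genes. Without heat pool 2 it was 3.12 (SE 0.46, edgeR adjusted p = 0.122), the third highest of 13224 tested genes. By p the gene stood at rank 399 with all pools (unadjusted p = 0.0038) and at rank 22 without heat pool 2 (unadjusted p = 0.00021), so the smaller difference had the smaller p. Ranked by FPKM among all genes of its own library, HSPB9 was at place 2567, 57 and 2036 in heat pools 1, 2 and 3, and at place 8983, 10454 and 6886 in control pools 1, 2 and 3.

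**Figure D2:**
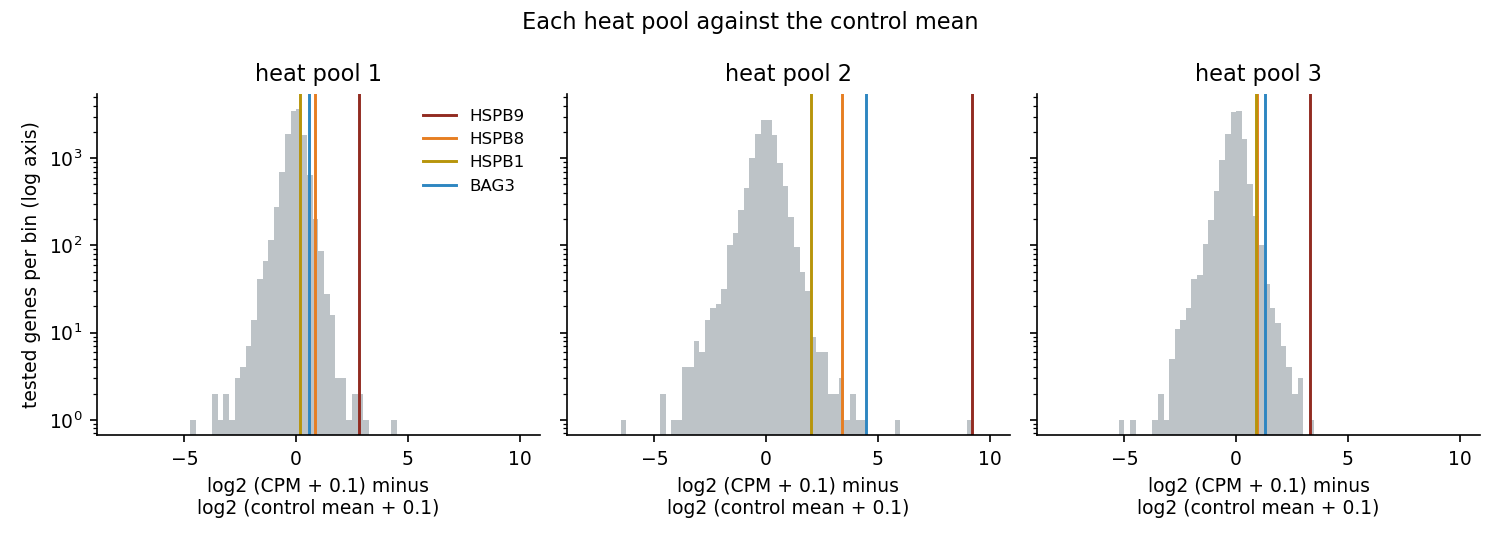
Distribution of all tested genes in each heat pool, as log2 (CPM + 0.1) minus log2 of the control mean + 0.1 (number of genes per bin on a log axis), with vertical lines for HSPB9, HSPB8, HSPB1 and BAG3. HSPB9 was at rank 5, 1 and 1 by fold over the control mean in heat pools 1, 2 and 3, while HSPB1 was at rank 3847, 46 and 289.

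BAG3 (gene 423931) had the most even control values of the 5 genes. It was at 40.3, 577 and 61.8 FPKM in heat pools 1, 2 and 3 and at 27.5, 26.0 and 27.8 FPKM in control pools 1, 2 and 3. In CPM the highest control pool was 1.07 times the lowest, against 3.98 times for HSPB9, 2.15 times for HSPB1 and 1.97 times for HSPB8, and every heat pool was above all control pools. The log2 fold change was 3.13 (SE 0.93, edgeR adjusted p = 0.158), the fourth highest of the tested genes. Without heat pool 2 it was 0.9999 (SE 0.21, edgeR adjusted p = 0.164, unadjusted p = 0.0017), at rank 107.

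HSPB8 (gene 416988), the small heat shock protein that BAG3 carries, had a smaller ratio to its control mean than BAG3 in heat pools 2 and 3 and a larger one in heat pool 1. It was at 24.3, 136 and 23.1 FPKM in heat pools 1, 2 and 3 and at 13.5, 8.91 and 17.2 FPKM in control pools 1, 2 and 3. Heat pools 1 and 3 were close to each other and above the highest control pool. The log2 fold change was 2.26 (SE 0.69, edgeR adjusted p = 0.163), and 0.91 (SE 0.26, edgeR adjusted p = 0.268) without heat pool 2. Within a pool, the ratio of BAG3 to HSPB8 (FPKM) was 1.66, 4.25 and 2.68 in heat pools, against 2.04, 2.92 and 1.61 in control pools, so the groups overlapped (exact two-sided permutation p = 0.6, n = 3 pools each, where 0.1 is the smallest p this design allows).

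HSPB1 (gene 396227), an actin-binding chaperone that p38 signalling phosphorylates, was the most abundant of the 5 genes in every control pool. It was at 67.2, 229 and 98.5 FPKM in heat pools 1, 2 and 3 and at 64.6, 36.3 and 76.3 FPKM in control pools 1, 2 and 3. Heat pool 1 lay between control pools 1 and 3, so the groups overlapped. The log2 fold change was 1.22 (SE 0.46, edgeR adjusted p = 0.226), and 0.57 (SE 0.33, edgeR adjusted p = 0.518, unadjusted p = 0.127) without heat pool 2.

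CRYAB (gene 396089), alpha-B crystallin, had too few counts to be tested. It was counted 6, 9 and 8 times in heat pools 1, 2 and 3 and 6, 5 and 12 times in control pools 1, 2 and 3, or 0.68 ± 0.10 FPKM in heat pools and 0.62 ± 0.31 FPKM in control pools (SD, n = 3 pools). Counting intervals overlapped between all pools, with 0.328 to 1.36 CPM in heat pool 2 and 0.447 to 1.51 CPM in control pool 3. When genes with low counts were kept in, its log2 fold change was 0.19 (SE 0.50, edgeR adjusted p = 0.89). In CPM its highest control pool was 2.42 times the lowest, so even a difference of moderate size could not be detected at this depth. HSPB2, the gene that lies next to CRYAB in the reference assembly, had no count in any heat pool and 1, 0 and 1 counts in control pools 1, 2 and 3.

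**Figure D3:**
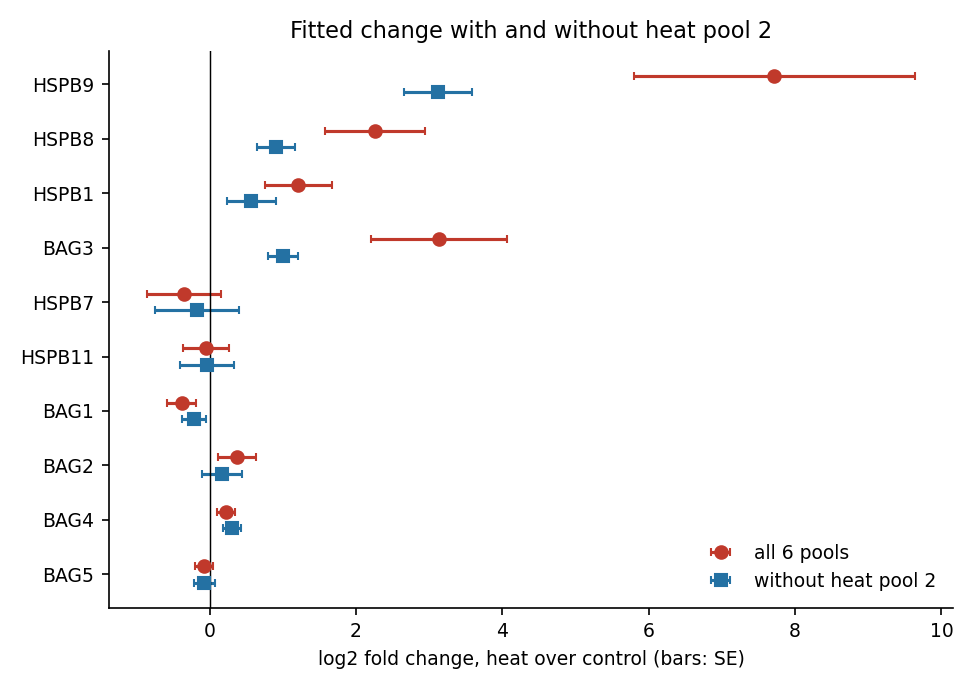
Log2 fold change of heat over control with its SE from edgeR, for all 6 pools and without heat pool 2, for the tested small heat shock proteins and BAG family genes. HSPB9, HSPB8, HSPB1 and BAG3 are positive in both fits and smaller without heat pool 2 (3.12, 0.91, 0.57 and 0.9999), and the other genes lie between -0.38 and 0.37 with all pools.

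The order of the transcripts by length-scaled level differed between the groups. In control pools HSPB1 (59.1 ± 20.6 FPKM) was followed by BAG3 (27.1 ± 0.970), HSPB8 (13.2 ± 4.18), HSPB9 (5.48 ± 3.56) and CRYAB (SD, n = 3 pools). Neighbours in that order did not overlap between pools, except HSPB8 and HSPB9, whose lowest and highest control pools were 8.91 and 9.38 FPKM. In heat pools 1 and 3 the order was HSPB1, BAG3, HSPB9 and HSPB8, with BAG3 and HSPB9 at almost the same level in heat pool 1 (40.3 and 39.5 FPKM). In heat pool 2 it was HSPB9, BAG3, HSPB1 and HSPB8, and the means over heat pools have an SD as large as themselves for HSPB9 (1120 ± 1861 FPKM), BAG3 (226 ± 304) and HSPB8 (61.1 ± 64.8).

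HSPB9 made up 23.0%, 77.6% and 21.7% of the summed FPKM of the 5 genes in heat pools 1, 2 and 3, against 4.21%, 3.24% and 7.12% in control pools 1, 2 and 3. The share of HSPB1 was 39.1%, 5.44% and 41.9% in heat pools, against 58.3%, 49.0% and 58.0% in control pools. The ratio of HSPB9 to HSPB1 was 0.588, 14.2 and 0.519 in heat pools, against 0.0722, 0.0661 and 0.123 in control pools, with no overlap (exact two-sided permutation p = 0.1, the smallest possible, n = 3 pools each). Together the 5 genes took 0.0159%, 0.352% and 0.0217% of all counts in heat pools, against 0.00969%, 0.00751% and 0.0111% in control pools.

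**Figure D4:**
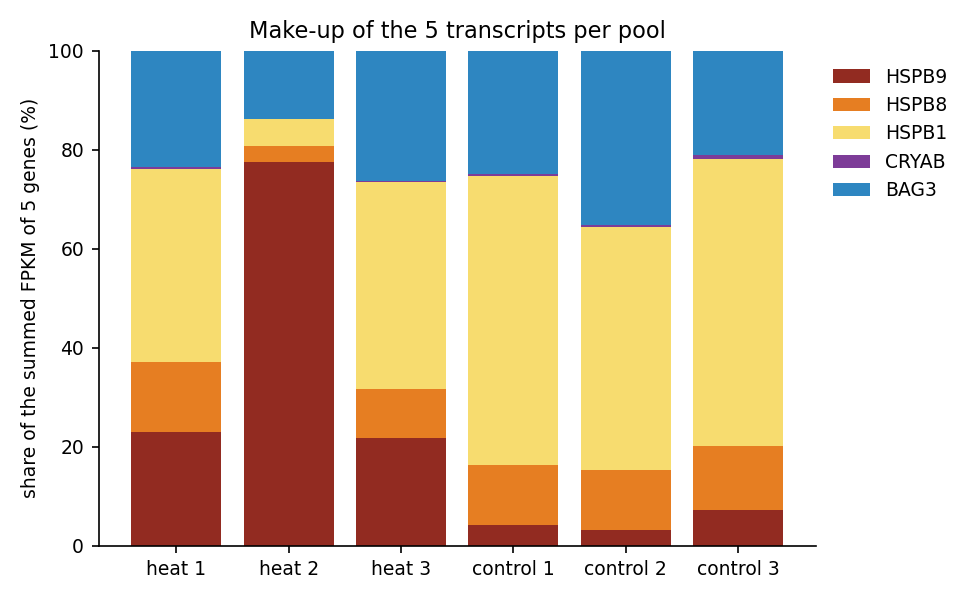
Share of each gene in the summed FPKM of the 5 genes, in percent, for 3 heat pools and 3 control pools. HSPB9 takes 77.6% in heat pool 2 and at least 21.7% in the other heat pools, against at most 7.12% in control pools, where HSPB1 takes 49.0% to 58.3%.

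Control pools 2, 1 and 3 stood in the same ascending order for HSPB9, HSPB8, HSPB1 and the summed smooth muscle markers. The order was the same for BAG3, in a narrow range (44.8, 47.3 and 48.1 CPM), and for CRYAB, at few counts (5, 6 and 12). Among the heat pools, pool 1 was lowest for the muscle sum (1072 CPM, below every control pool). In CPM, heat pool 1 was also the lowest heat pool for HSPB9, HSPB8, HSPB1, BAG3 and CRYAB. The muscle sum was nearly equal in heat pools 2 and 3 (2072 and 2121 CPM), while HSPB9 differed 60.3-fold between them. Fibroblast markers were highest in heat pool 2, whose sum of 2534 CPM stood beside 1700 and 1318 CPM in heat pools 1 and 3 and 1490 to 2065 CPM in control pools (10 of 10 genes detected). Of all tested genes, 11.6% had every heat pool above every control pool and 12.9% had every heat pool below. None of the 12 smooth muscle or 10 fibroblast genes had groups that did not overlap. The enterocyte sum was lowest in heat pool 2 (10430 CPM), but its genes went both ways there. APOA4 (713 CPM), VIL1 (617 CPM) and CDH17 (504 CPM) were lower in heat pool 2 than in any other pool. SI (1579 CPM), ANPEP (2620 CPM) and EPCAM (2219 CPM) were higher in heat pool 2 than in every control pool. Of 11 enterocyte markers, 1 did not overlap, which beside those shares is not read as a result about enterocytes. It was VIL1, villin, at 813, 617 and 1106 CPM in heat pools and at 1267, 1200.0 and 1250.0 CPM in control pools (log2 fold change -0.55, edgeR adjusted p = 0.235). The erythroid marker HBBA, a beta-globin, also had every heat pool below every control pool (log2 fold change -0.98, edgeR adjusted p = 0.0778). HBA1, the other erythroid marker with enough counts to be tested, overlapped between the groups (log2 fold change -0.13, edgeR adjusted p = 0.798). The part of these cells in the levels of the small heat shock proteins and BAG3 was not tested.

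Only HSPB7 and HSPB11 of the other genes named as small heat shock proteins could be tested, and neither showed a shift of this size. HSPB7, a muscle member of the family, was at 1.39, 1.71 and 3.45 FPKM in heat pools and at 2.73, 1.62 and 4.48 FPKM in control pools (log2 fold change -0.35, SE 0.50, edgeR adjusted p = 0.763). HSPB11, a ciliary transport protein that carries the family's name, was at a log2 fold change of -0.051 (SE 0.31, edgeR adjusted p = 0.954). HSPB3 had at most 2 counts in any pool and the lens gene CRYAA had none. Of the 5 other genes of the family found in the table, 2 were tested and 0 passed in edgeR, where 0.023% of all tested genes did. The median log2 fold change of these 2 tested genes was -0.20, beside -0.003 for all tested genes.

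The other BAG proteins, which bind HSP70 through the same kind of domain, overlapped in CPM between the groups in all 4 cases. Overlap is the usual case, since 11.6% of all tested genes had every heat pool above and 12.9% every heat pool below. BAG1, which links HSP70 to the proteasome, was at 22.7, 13.5 and 17.1 CPM in heat pools 1, 2 and 3 and at 25.2, 21.6 and 22.4 CPM in control pools 1, 2 and 3 (log2 fold change of -0.38, SE 0.20, edgeR adjusted p = 0.355). In FPKM its highest heat pool (20.1) lay just under its lowest control pool (20.4). BAG2, an inhibitor of STUB1, had a log2 fold change of 0.37 (SE 0.26), BAG4, a silencer of death receptors, of 0.22 (SE 0.12) and BAG5, another exchange factor, of -0.072 (SE 0.12). None of the 4 passed in edgeR, where 0.023% of all tested genes did, and their median was 0.076.

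The ratio of BAG3 to BAG1 could not overlap between the groups. In FPKM every heat pool was above every control pool for BAG3 and below every control pool for BAG1. The ratio (FPKM) was 2.01, 49.6 and 4.44 in heat pools 1, 2 and 3, against 1.21, 1.26 and 1.36 in control pools 1, 2 and 3. The exact two-sided permutation p of 0.1, the smallest possible with n = 3 pools each, was thus fixed by the levels of BAG3 and BAG1 and adds nothing to them. The ratio of BAG3 to HSPA8, the constitutive HSP70 that it serves, was 0.0307, 0.165 and 0.0418 in heat pools, against 0.0278, 0.0255 and 0.0277 in control pools, also without overlap (exact two-sided permutation p = 0.1).

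In chaperone-assisted selective autophagy, BAG3, HSPB8, HSP70 and STUB1 pass clients to the receptor SQSTM1 and on to the lysosome. Of 20 tested genes of this route, 0 passed in edgeR, where 0.023% of all tested genes did. All heat pools were above all control pools in 10 of them (11.6% of all tested genes). All heat pools were lower in 2 of them (12.9% of all tested genes), a share near the background. The median log2 fold change of the 20 genes was 0.25, and 0.26 when heat pool 2 was left out. SQSTM1, the receptor p62, was at 133, 365 and 179 CPM in heat pools 1, 2 and 3 and at 118, 108 and 93.3 CPM in control pools 1, 2 and 3 (log2 fold change 1.09, SE 0.34, edgeR adjusted p = 0.165, and 0.56 without heat pool 2). HSPA8 was at 1.12 (SE 0.36, edgeR adjusted p = 0.175), and 0.55 without heat pool 2.

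Several downstream genes of the route differed little between heat pools. LAMP2, a lysosomal membrane protein, was at 184, 193 and 172 CPM in heat pools and at 146, 146 and 136 CPM in control pools (0.36, SE 0.11, edgeR adjusted p = 0.153). MAP1LC3A, an autophagosome coat protein, was at 124, 123 and 138 CPM in heat pools and at 100, 94.8 and 108 CPM in control pools (0.35, SE 0.11, edgeR adjusted p = 0.165). VPS16, part of the complexes that tether vesicles to lysosomes, was lower, at 46.7, 36.0 and 40.0 CPM in heat pools, against 66.8, 67.9 and 62.0 CPM in control pools (-0.68, SE 0.12, edgeR adjusted p = 0.0773). The other VPS genes of the list went different ways. VPS11 was lower in every heat pool (-0.32, SE 0.13, edgeR adjusted p = 0.265) and VPS18 was higher in every heat pool (0.39, SE 0.20, edgeR adjusted p = 0.36). STUB1 was at -0.16 (SE 0.12) and SYNPO2, which couples BAG3 to actin structures in muscle, at -0.026 (SE 0.26), and both overlapped between the groups. LAMP2, MAP1LC3A, VPS16, VPS11, VPS18, STUB1 and SYNPO2 were named after their values were seen.

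**Figure D5:**
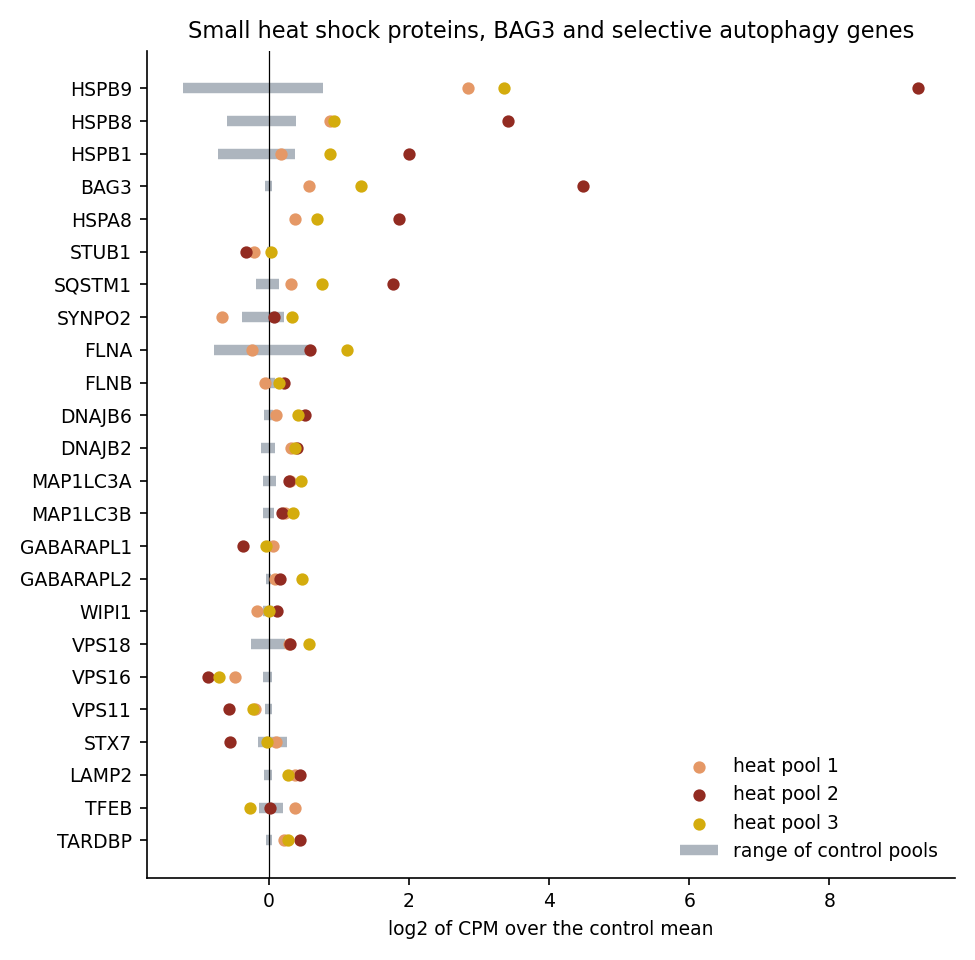
Log2 of the CPM of each heat pool over the control mean for HSPB9, HSPB8, HSPB1, BAG3 and 20 genes of chaperone-assisted selective autophagy, with grey bars for the range of the 3 control pools. HSPA8 and SQSTM1 are highest in heat pool 2, and VPS16 lies below the control range in all heat pools.

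Folding partners that take over clients from small heat shock proteins, listed as inducible, were higher on average in heat pools. The list held HSP70 and HSP110 genes with their J-domain partners, HSP90AA1 and its co-chaperone CHORDC1, and it shares HSPA8 with the autophagy list. It was chosen as inducible genes with earlier results of these data known, so its counts are no independent support. Of its 11 tested genes, 10 had every heat pool above every control pool in CPM (11.6% of all tested genes). Of these, DNAJB4 was barely apart, at 31.0 CPM in heat pool 3 and 30.4 CPM in control pool 3. In FPKM DNAJB4 overlapped, at 6.76 in heat pool 3 and 7.21 in control pool 3. With all pools 0 passed in edgeR, where 0.023% of all tested genes did. The median log2 fold change was 1.17, and 0.87 without heat pool 2. HSPA2, of the HSP70 family, was at 165, 2889 and 143 FPKM in heat pools 1, 2 and 3 and at 47.1, 40.9 and 78.3 FPKM in control pools 1, 2 and 3. Without heat pool 2, edgeR called 0.0227% of 13224 genes (3 genes) and 0 of the 4 tested small heat shock proteins and BAG3, and of these only HSPB9 still had a log2 fold change of at least 1, as 0.802% of tested genes did. BAG3, at 0.9999, was just under that limit. DNAJA4, a J-domain partner of HSP70, was among the genes called (1.45, SE 0.14, edgeR adjusted p = 0.0457, against an adjusted p of 0.124 with all pools).

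None of the 4 tested heat shock factors passed in edgeR, where 0.023% of all tested genes did. HSF1, the main heat-activated factor of mammals, was at 6.02, 6.29 and 8.26 CPM in heat pools and at 6.31, 7.60 and 3.82 CPM in control pools (log2 fold change 0.21, SE 0.28, edgeR adjusted p = 0.739). HSF3, a heat-activated factor of birds, was at 57.8, 52.7 and 49.0 CPM in heat pools and at 45.1, 46.4 and 45.7 CPM in control pools (0.22, SE 0.11, edgeR adjusted p = 0.332). Its groups did not overlap in CPM and did in FPKM. HSF2 was at -0.26 (SE 0.15), with every heat pool lower in CPM, and HSF5 at -0.44 (SE 0.40), or -0.86 (SE 0.40, edgeR adjusted p = 0.421) without heat pool 2. HSF4 had at most 2 counts in a pool.

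Kinases that phosphorylate small heat shock proteins, kinases upstream of those, and the cytoskeletal proteins that these chaperones protect were examined by list. The lists were chosen with earlier results of these data known. Of 9 kinases, 0 passed in edgeR, where 0.023% of all tested genes did, and the list median was 0.021. In 2 kinases all heat pools were above all control pools. The same held for 11.6% of all tested genes, so 2 of 9 is not read as a result about the kinases. MAPKAPK2, the kinase that phosphorylates HSPB1 below p38, was at 145, 163 and 161 CPM in heat pools and at 122, 119 and 119 CPM in control pools (0.38, SE 0.10, edgeR adjusted p = 0.137). PRKD1, protein kinase D1, was at 52.9, 50.9 and 39.1 CPM in heat pools and at 32.1, 34.7 and 30.2 CPM in control pools (0.56, SE 0.14, edgeR adjusted p = 0.13). PRKD1 was highest in heat pool 1, unlike the small heat shock proteins, and MAPK14, the p38 kinase, named after its value was seen, was at 0.021 (SE 0.10).

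Of 12 tested cytoskeletal genes, 0 passed in edgeR, where 0.023% of all tested genes did, and the median was -0.007. In 2 of them all heat pools were below all control pools. The same held for 12.9% of all tested genes, so 2 of 12 is near the background. The 2 were TUBB6, a beta-tubulin, at 61.1, 36.7 and 67.4 CPM in heat pools, against 75.1, 79.4 and 68.5 CPM in control pools (-0.43, SE 0.21, edgeR adjusted p = 0.323), and ACTN1, an actin cross-linker, at -0.097 (SE 0.10). Desmin (DES), a muscle client of CRYAB also named after its value was seen, was at 0.17 (SE 0.24, edgeR adjusted p = 0.762).

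The genes whose log2 CPM followed each transcript most closely over the 6 pools are given as a description. Heat pool 2 was the highest pool for HSPB9, HSPB8, HSPB1 and BAG3. A Pearson r of at least 0.95 with them was reached by 159, 128, 49 and 103 of 13059 other genes, in that order. For HSPB9 they were ELMSAN1 (r = 0.996), HMX3 (0.994), HSPA2 (0.993), HSPB8 (0.993) and KLHDC2 (0.991). For HSPB8 they were CLMN (0.996), CARS (0.996), IRF2BP2 (0.995), HSPB9 (0.993) and HSPA2 (0.993). For HSPB1 they were EDN2 (0.996), CHRDL1 (0.993), JDP2 (0.991), MORF4L1 (0.986) and FFAR4 (0.983), and for BAG3 they were ZBTB39 (0.996), HSPA8 (0.995), TCP1 (0.992), ASB6 (0.992) and MBTPS1 (0.991). No chaperone was among the 5 named for HSPB1, although HSPB8 was at r = 0.953 with it. EDN2, which encodes endothelin 2, was at 31.5, 92.0 and 48.9 CPM in heat pools, against 31.6, 21.8 and 36.9 CPM in control pools.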

How the data were processed

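Per the file headers, the authors deposited an estimated count and an FPKM value for each gene in each library. Between 13.05% and 13.65% of the counts of a library were not whole within 0.001, and those of the 5 genes were whole. The submitters' processing notes name cutadapt 1.9.1, HISAT2 2.0.1, HTSeq 0.6.1, DESeq2 and the build GRCg6a, without roles or settings. The sources used here do not say which tool made the fractional counts or the FPKM. Names were compared with a reference gene table of another build (GRCg7b), so no coordinates are given.

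Counts were rounded and tested across all genes with edgeR 4.0.16 (glmQLFit, glmQLFTest, two-sided) in R 4.3.3, after filterByExpr (minimum count 10, minimum total 15) and TMM scaling, with Benjamini-Hochberg adjustment and a threshold of 0.05. SE is the log2 fold change over the root of F. DESeq2 1.42.0 and limma 3.58.1 (limma-trend on log2(FPKM + 1)) were alternatives, with other scalings, no filter and each pool left out. The tests were checked on simulated counts. The simulation gave each gene the same dispersion in all pools, so it did not model a pool that stands apart. Poisson intervals and permutation tests used scipy 1.17.1.

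Libraries of a group were distinct: pairwise chi-square over its degrees of freedom was 22.2 to 65.1. The 5 genes and all gene lists were chosen with earlier results of these data known. Named genes were the 5, every measured gene of the lists of other small heat shock proteins, BAG proteins and heat shock factors, and, of each other list, up to 2 with the largest fold change among genes whose groups did not overlap. The 5 most similar genes of each were added. In that rule HSP25 was listed apart from HSPB9, although it is a synonym of it. Promoter motifs were planned but not analysed here.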

Additional observations from a re-analysis of the deposited data

How the results depend on the processing

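The log2 fold changes of HSPB9, HSPB8, HSPB1 and BAG3 were positive under every alternative tried, and none passed an adjusted p of 0.05 in any of them. In each gene the lowest value was that without heat pool 2. The values ranged from 3.12 to 8.35 for HSPB9, from 0.91 to 2.66 for HSPB8, from 0.57 to 1.56 for HSPB1 and from 0.9999 to 3.64 for BAG3. Their adjusted p ranged from 0.0679 to 0.32, from 0.0927 to 0.353, from 0.149 to 0.518 and from 0.0724 to 0.356. DESeq2 gave no p for HSPB9. The number of genes called among all tested, 3 in edgeR, was 645 in DESeq2 and 1 in limma-trend on log2(FPKM + 0.1), and lay between 0 and 7 when single pools were left out: it was 7 without heat pool 3, stayed at 3 without heat pool 2 and was 0 in the other cases. The cause was not tested. With the replicate number as a block the count was 20 and the 4 fold changes were 4.74, 1.72, 1.05 and 2.02. The labels link same-numbered pools by the number only. Deviations of same-numbered pools correlated at 0.257, 0.089 and 0.017 for pools 1, 2 and 3. The value for pools 1 was the highest of any heat and control pair, while heat pool 2 correlated best with control pool 3 (0.185). With 3 pools a group, heat pool 2 stood apart in HSPB9, HSPB8, HSPB1 and BAG3. The spread between heat pools limits the precision of these 4 fold changes, and for CRYAB the depth does.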
